A study of Homo sapiens with 6 samples.

Results

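The endoplasmic reticulum (ER) stress genes described here are 36 genes in 4 role lists: 15 ER chaperones and folding enzymes, 4 genes of ER-associated degradation, 5 stress sensors or ER-linked transcription factors, and 12 genes of the ATF4 pathway. They were taken by symbol from the 27988 genes named in the files, and the level of a gene was the sum of TPM (a relative abundance normalised for transcript length and library size) over its transcript lines. All 36 were named in at least 1 library, and 35 reached 1 TPM in 3 or more libraries, the filter on low values that left 15647 genes for the test. VLDLR, a lipoprotein receptor in the ATF4 list, did not pass: it had 0.215 TPM in mismatch siRNA library 1 and no value in the other 5 libraries, where it was counted as 0.

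The libraries came from HaCaT, an immortalised human keratinocyte line, grown in high glucose medium with 10% serum. In one group the cells received 100 pmol of an siRNA against PSENEN, which encodes the smallest subunit of the γ-secretase protease (3 libraries). In the other they received a mismatch siRNA as negative control (3 libraries), so both groups carried a transfected RNA duplex and the lipid reagent. No amount is given for the mismatch siRNA. The labels give 48 h and 72 h after transfection for RNA extraction and do not say which applies to these libraries, nor whether the libraries came from separate cultures, so p-values measure the spread between libraries.

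Proteins that enter the ER are folded by chaperones and by enzymes that form disulfide bonds. When unfolded proteins accumulate, the unfolded protein response acts through 3 membrane sensors: ATF6 and IRE1 (gene ERN1), which drive chaperone and degradation genes through cleaved ATF6 and spliced XBP1, and PERK (gene EIF2AK3), which slows translation and raises ATF4 protein. ATF4 also answers amino acid shortage and other stresses through other kinases, and drives genes of amino acid synthesis and of the later stress response.

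Depth had to be derived from the ratio of coverage to FPKM, which gave 9.16 to 11.9 gigabases with PSENEN siRNA and 11.5 to 15.6 gigabases with mismatch siRNA, and no counting intervals can be given. PSENEN itself had 1.75, 2.08 and 1.496 TPM with PSENEN siRNA, against 6.58, 8.85 and 6.55 TPM with mismatch siRNA, a change of -1.58 ± 0.18 on the log2(TPM + 1) scale (SE; limma adjusted p = 0.0471). That call was lost when any 1 of the 6 libraries was left out (adjusted p from 0.110 to 0.155). All 6 keratinocyte markers were present: TP63, KRT5, KRT6A, DSG3 and SFN were lower with PSENEN siRNA without overlap, KRT14 overlapped, and the 6 together summed to 3240 to 3979 TPM with PSENEN siRNA and 3331 to 7624 TPM with mismatch siRNA. With transcripts assembled without a reference name added, all 6 markers lay lower with PSENEN siRNA without overlap, with a median change of -0.59. They then summed to 4051 to 4352 TPM with PSENEN siRNA and 6203 to 8922 TPM with mismatch siRNA. Among all genes tested, 13.7% lay lower without overlap, and 14.5% with the assembled transcripts added. Of markers of other cells, COL1A1 had 0.460 to 0.927 TPM with PSENEN siRNA and 1.18 to 1.47 TPM with mismatch siRNA. COL1A1 thus also lay lower without overlap, though not with assembled transcripts. COL3A1 had 0.0779 TPM in 1 library and no value in the others. No transcript line named the other 4 of these markers (PTPRC, PECAM1, MLANA and VIM), so no level is given for them. Mitochondrially encoded transcripts took 3.27% to 4.11% of TPM with PSENEN siRNA and 3.21% to 3.39% with mismatch siRNA. What part these differences have in the values below was not tested, and in bulk RNA fewer cells of a kind and less RNA per cell cannot be told apart.

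Sequence elements of the pathway were read first from the promoters, defined as 250 bases before to 50 bases after a transcription start in RefSeq (GRCh38.p14), on both strands. Promoters were matched by symbol for 35 of the 36 genes, all but PDIA3. The ER stress element, the site through which ATF6 is known to act together with NF-Y, was searched as CCAAT and CCACG held 9 bases apart. It was found in 7 members and in 25 of the 27305 genes with a promoter sequence (27 of 35116 promoters, 0.0769%). The 7 are shown because they are the chaperone and XBP1 promoters that the levels below can be set beside; each is written in the direction of the motif, with the fixed bases in capitals.
HSPA5: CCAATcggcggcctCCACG
HSP90B1: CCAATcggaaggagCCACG
CRELD2: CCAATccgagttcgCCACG
CALR: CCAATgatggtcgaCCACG
CANX: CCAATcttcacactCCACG
PDIA6: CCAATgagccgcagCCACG
XBP1: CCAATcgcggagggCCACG

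In GRCh38 coordinates these lie at chr9:125241391-125241409 (HSPA5), chr12:103930216-103930234 (HSP90B1), chr22:49918554-49918572 (CRELD2), chr19:12938384-12938402 (CALR), chr5:179698778-179698796 (CANX), chr2:10812853-10812871 (PDIA6) and chr22:28800603-28800621 (XBP1). The HSPA5 element starts 66 bases and the XBP1 element 52 bases upstream of the start. HSP90B1 held another match, on the opposite strand, 89 bases upstream. The elements of CRELD2 and CALR also read on the strand opposite to the gene. In the genome, the printed letters are those of the plus strand for HSP90B1 and CANX and of the minus strand for the other 5. A shorter form, ATTGG and CCACG held 1 base apart, was found in 3 members and in 19 genes of all with a promoter. These sites are shown because their genes complete the set of members with an ER stress element of either kind.
HYOU1: ATTGGaCCACG
SDF2L1: ATTGGtCCACG
HERPUD1: ATTGGgCCACG

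HYOU1 held this form at 2 places, chr11:119057274-119057284 and chr11:119057380-119057390, and the second overlaps its match to TGACGTGG, the core bound by XBP1 and ATF6, which 0.729% of promoters hold. The SDF2L1 site is at chr22:21642114-21642124 and the HERPUD1 site at chr16:56932025-56932035. The printed letters are those of the minus strand for SDF2L1 and of the plus strand for HYOU1 and HERPUD1. No member of the ATF4 list held either ER stress element. The C/EBP-ATF response element bound by ATF4, searched as TGATG and AA held 1 base apart, was found in ASNS, ATF3, CHAC1, HERPUD1 and CREB3L2. It was found in none of the 14 chaperone genes with a promoter, and in 4.46% of all genes with a promoter (3.62% of promoters). At so low a share, its absence from 14 genes does not set them apart. These matches describe letters in a window and are no measure of binding.

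None of the 35 tested members passed the test at an adjusted p under 0.05 (limma, a linear model per gene with the variance moderated over all genes). Over all genes tested the test called 64, of which 44 were lower with PSENEN siRNA (0.281% of genes tested) and 20 higher (0.128%). At an unadjusted p under 0.05, 11 members were lower and 1 was higher, where 8.49% of all genes were lower and 4.49% higher. The 3 values of PSENEN siRNA lay entirely below the 3 of mismatch siRNA for 15 of 35 members and entirely above for 1, against 13.7% and 8.21% of all genes. Changes were negative for 29 members and positive for 6, with a median of -0.27 on the log2(TPM + 1) scale, while the median over all genes tested was -0.04. This scale understates the changes of genes with low levels. When only genes with a mean of at least 10 TPM were counted, 13 of 27 members lay lower without overlap and 1 higher, against 16.7% and 9.09% of such genes. Adding transcripts that StringTie assembled without a reference name, where they had a splice junction of the gene, gave 17 members lower and 2 higher without overlap, against 14.5% and 7.81% of all genes, and again no member past the threshold.

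**Figure D1:**
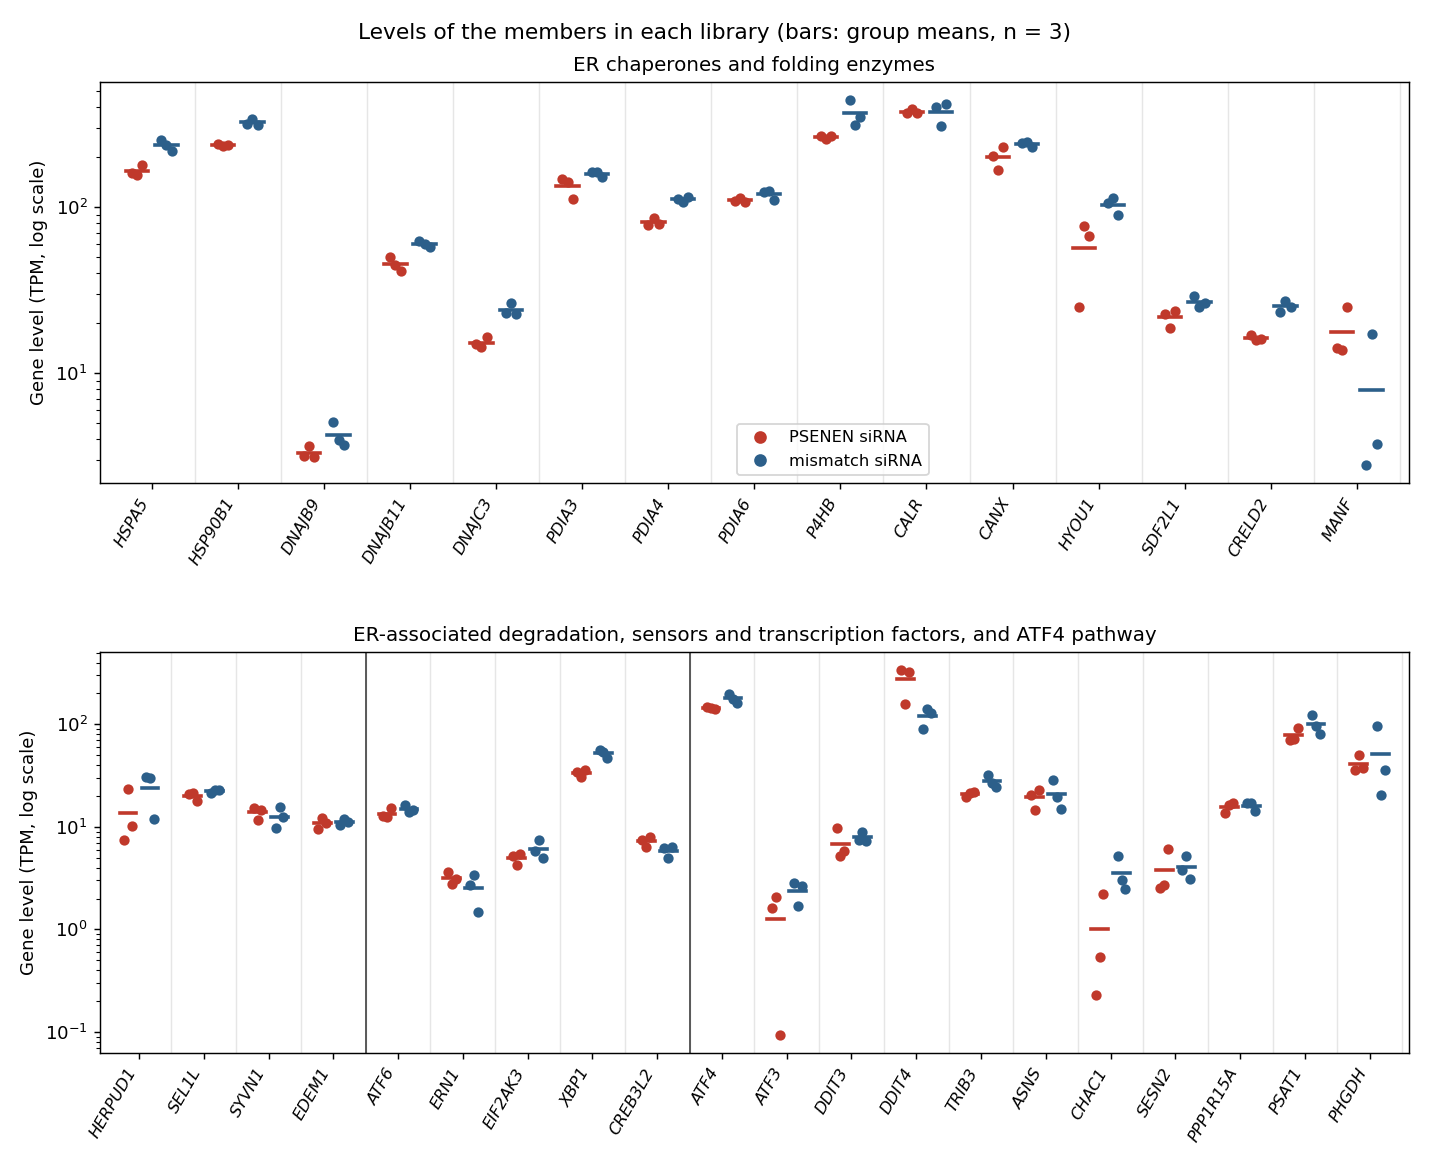
Level of each tested member in TPM (log axis) in each of the 3 PSENEN siRNA libraries (red, left of each pair) and the 3 mismatch siRNA libraries (blue, right), with bars for group means; the upper panel holds the chaperones and folding enzymes, the lower panel the other 3 lists divided by vertical lines. For HSPA5 the red points lie at 156 to 181 TPM and the blue points at 218 to 253 TPM, while for DDIT4 the red points lie above the blue ones.

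The chaperones and folding enzymes, the longest list, had most members lower with PSENEN siRNA. Of 15, 11 lay lower without overlap, against 13.7% of all genes. An unadjusted p under 0.05 (limma) was reached by 7 of them, where 8.49% of all genes were lower. The median change was -0.40, against -0.04 over all genes tested. Keratinocyte markers had a median change of -0.39, with 5 of 6 lower without overlap. The chaperone levels summed to 1746 ± 29.2 TPM with PSENEN siRNA and 2187 ± 105 TPM with mismatch siRNA (SD, n = 3 each). The lowest adjusted p in the list was 0.0866.

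HSPA5 (ENSG00000044574, chromosome 9, 125234853 to 125241330, minus strand) encodes BiP, the main Hsp70 chaperone of the ER lumen and the protein that keeps the 3 stress sensors inactive. It had 161, 156 and 181 TPM with PSENEN siRNA, against 253, 238 and 218 TPM with mismatch siRNA. The groups did not overlap, and the change was -0.51 ± 0.10 (SE; limma adjusted p = 0.122). HSP90B1 (ENSG00000166598, chromosome 12, 103930107 to 103953645, plus strand) encodes GRP94, the Hsp90 of the ER. It had 242, 235 and 236 TPM with PSENEN siRNA, against 319, 339.6 and 314 TPM with mismatch siRNA. The libraries of each group lay close together and the groups were far apart relative to that spread, with a change of -0.45 ± 0.08 (SE; limma adjusted p = 0.0866, from 0.0708 to 0.369 over the alternatives). Of the 31-base words in HSP90B1 transcripts, 18.7% are shared with other genes, and the pseudogene HSP90B2P, with which it shares most, had 1.90 to 2.52 TPM with PSENEN siRNA and 1.99 to 2.86 TPM with mismatch siRNA.

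The 3 J-domain cochaperones among the members, which direct BiP to its substrates, lay lower with PSENEN siRNA without overlap. Of all genes 13.7% did so, and none of the 3 passed the test. DNAJC3 (P58IPK) had 14.9, 14.5 and 16.5 TPM with PSENEN siRNA, against 23.2, 26.6 and 22.8 TPM with mismatch siRNA. Its change of -0.63 ± 0.12 was the most negative among chaperones other than HYOU1 (SE; limma adjusted p = 0.109). DNAJB11 (ERdj3) averaged 45.3 ± 4.37 TPM with PSENEN siRNA and 59.9 ± 2.64 TPM with mismatch siRNA (SD, n = 3 each), without overlap. DNAJB9 (ERdj4), which binds IRE1, was much less abundant, at 3.31 ± 0.275 TPM with PSENEN siRNA and 4.24 ± 0.738 TPM with mismatch siRNA, also without overlap. HYOU1, the nucleotide exchange factor for BiP, had 25.1, 77.4 and 67.5 TPM with PSENEN siRNA, against 107, 114 and 89.9 TPM with mismatch siRNA. PSENEN siRNA library 1 was far below the other 2 of its group. Its transcript ENST00000530473 had no value in that library, where it was counted as 0, and 41.0 to 76.5 TPM in the others. The HYOU1 change was -1.0 ± 0.42 (SE; limma adjusted p = 0.390), -0.50 without that library, and -0.69 ± 0.19 with assembled transcripts included, where the groups still did not overlap.

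Protein disulfide isomerases form and rearrange disulfide bonds. PDIA4 had 78.4, 86.5 and 78.9 TPM with PSENEN siRNA, against 111, 108 and 115 TPM with mismatch siRNA, a change of -0.45 ± 0.09 (SE; limma adjusted p = 0.110). These values left a wide gap between the groups. P4HB, which is also the β subunit of collagen prolyl 4-hydroxylase, averaged 264 ± 5.07 TPM with PSENEN siRNA and 368 ± 65.7 TPM with mismatch siRNA (SD, n = 3 each). Mismatch siRNA library 1 was highest there, with 129 TPM in the single transcript ENST00000476482, which had under 0.05 TPM in each of the other libraries. PDIA3 (ERp57), the partner of calnexin and calreticulin, averaged 134 ± 19.1 TPM with PSENEN siRNA and 159 ± 6.80 TPM with mismatch siRNA, and 36.8% of its words are shared with other genes, most with the overlapping gene ELL3. PDIA6 was the isomerase whose groups overlapped, at 111 ± 3.05 TPM with PSENEN siRNA and 119.6 ± 8.38 TPM with mismatch siRNA. With assembled transcripts this turned round: PDIA6 lay lower with PSENEN siRNA without overlap and the groups of P4HB overlapped.

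CRELD2, an ER protein with a disulfide isomerase activity that is induced by ER stress, had 17.1, 15.9 and 16.04 TPM with PSENEN siRNA, against 23.4, 27.3 and 25.1 TPM with mismatch siRNA. The groups were well apart, with a change of -0.59 ± 0.11 (SE; limma adjusted p = 0.104). SDF2L1, which works with the J-domain proteins, averaged 21.8 ± 2.62 TPM with PSENEN siRNA and 26.8 ± 2.03 TPM with mismatch siRNA (SD, n = 3 each), without overlap.

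The lectin chaperones, which hold glycoproteins during folding, were among the 4 exceptions. CALR (calreticulin), the most abundant member of all, had 369, 389 and 372 TPM with PSENEN siRNA, against 400.0, 308 and 419 TPM with mismatch siRNA. Its groups overlapped and its change was 0.02 ± 0.13 (SE; limma adjusted p = 0.969). Within CALR, the transcript ENST00000316448 had 302, 286 and 312 TPM with PSENEN siRNA and 222, 238 and 209 TPM with mismatch siRNA, while ENST00000588454 had 50.3, 56.6 and 46.6 TPM with PSENEN siRNA and 147, 68.4 and 128 TPM with mismatch siRNA. So the transcripts of CALR differed in opposite directions, and neither was tested on its own. CANX (calnexin) averaged 200.2 ± 32.6 TPM with PSENEN siRNA and 240.5 ± 8.33 TPM with mismatch siRNA (SD, n = 3 each), with an overlap of 1 library. MANF, a secreted ER protein induced by ER stress, was the other chaperone with a positive change, at 14.2, 13.8 and 24.97 TPM with PSENEN siRNA and 2.81, 17.3 and 3.77 TPM with mismatch siRNA. Mismatch siRNA libraries 1 and 3 were low on these summed reference transcripts. There ENST00000528157, the main transcript of the gene, had 0.0577 TPM in library 1 and no value in library 3. With assembled transcripts mismatch siRNA library 3 had 25.06 TPM, the highest of the 6 libraries, and mismatch siRNA library 1 stayed at 2.81 TPM. The change of 1.38 ± 0.62 was 0.56 ± 0.70 with assembled transcripts (SE; limma adjusted p = 0.418 and 0.759).

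Set beside the promoter elements, the levels did not divide by them. Of the 6 chaperones with the longer ER stress element, HSPA5, HSP90B1 and CRELD2 lay lower with PSENEN siRNA without overlap, and CALR, CANX and PDIA6 overlapped, PDIA6 only on the summed reference transcripts. HYOU1 and SDF2L1, which hold the shorter element, lay lower, and so did DNAJC3 and PDIA4, in which neither element was found.

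**Figure D2:**
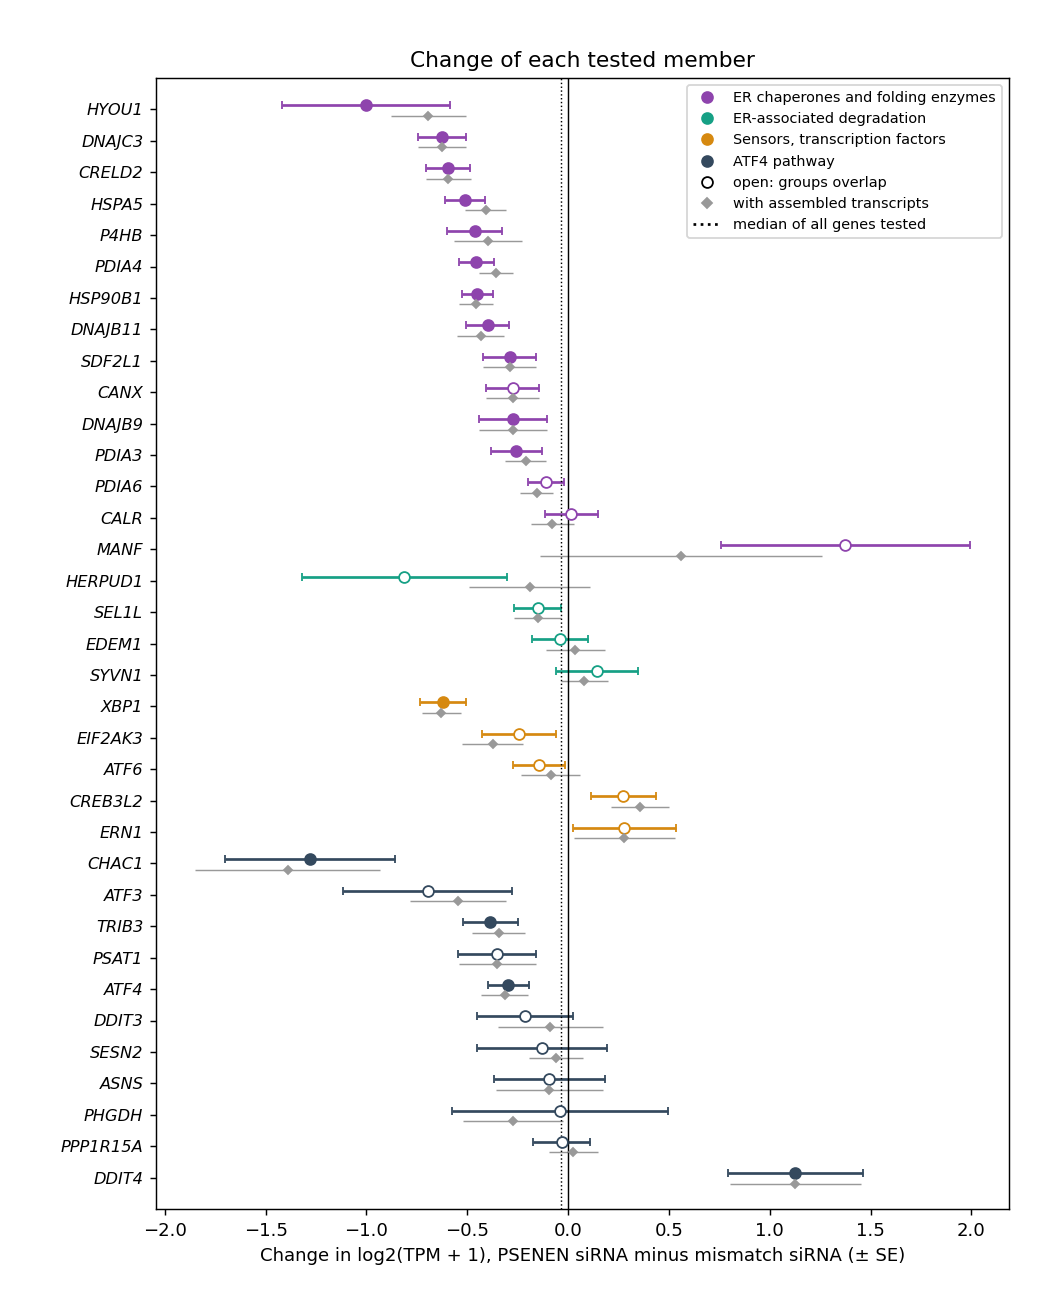
Change of each tested member on the log2(TPM + 1) scale, PSENEN siRNA minus mismatch siRNA, with its SE, by list and ordered within the list; open symbols are members whose groups overlap, grey diamonds the same fit with assembled transcripts, and the dotted line the median of all genes tested (-0.04). Chaperones lie mostly between -0.63 and -0.26, and DDIT4 stands alone among the filled symbols on the positive side, at 1.13.

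The 4 genes of ER-associated degradation, which returns misfolded proteins to the cytosol, all overlapped between the groups, and their median change was -0.10. Over all genes, 13.7% lay lower and 8.21% higher without overlap. SEL1L, the adaptor of the HRD1 ligase, had 21.0, 21.5 and 17.8 TPM with PSENEN siRNA, against 21.4, 23.0 and 22.7 TPM with mismatch siRNA. SYVN1, the HRD1 ligase itself, averaged 13.8 ± 1.92 TPM with PSENEN siRNA and 12.6 ± 3.02 TPM with mismatch siRNA (SD, n = 3 each). EDEM1, which trims mannose from glycoproteins bound for degradation, averaged 10.8 ± 1.33 TPM with PSENEN siRNA and 11.1 ± 0.769 TPM with mismatch siRNA. HERPUD1, an ER membrane protein of the same complex, varied most. It had 7.48, 23.1 and 10.3 TPM with PSENEN siRNA, against 30.7, 29.8 and 11.8 TPM with mismatch siRNA. With assembled transcripts its change was -0.19 ± 0.30 in place of -0.81 ± 0.51 (SE). It was -0.49 without PSENEN siRNA library 1, -1.25 without PSENEN siRNA library 2 and -1.24 without mismatch siRNA library 3.

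Among the sensors and transcription factors, XBP1 was the only one of 5 without overlap on the summed reference transcripts. With so few genes this count is near the share of all genes, of which 13.7% lay lower and 8.21% higher. XBP1 (ENSG00000100219, chromosome 22, 28794555 to 28800597, minus strand) had 34.5, 30.5 and 35.4 TPM with PSENEN siRNA, against 55.7, 53.2 and 47.3 TPM with mismatch siRNA. The gap between the groups was wider than either group's range, and the change was -0.62 ± 0.11 (SE; limma adjusted p = 0.0997). With assembled transcripts the adjusted p was 0.0573, the lowest of any member under any alternative run. No 31-base word of XBP1 is shared with another gene. ATF6 and EIF2AK3 had changes of -0.14 ± 0.13 and -0.24 ± 0.18, ERN1 and CREB3L2 of 0.28 ± 0.25 and 0.27 ± 0.16 (SE). Leaving out 1 library moved them: the change of ERN1 was 0.040 without mismatch siRNA library 3 and 0.46 without mismatch siRNA library 2. Without mismatch siRNA library 2, that of EIF2AK3 was -0.11 and that of CREB3L2 was 0.18. CREB3L2, a membrane-bound factor related to ATF6, averaged 7.27 ± 0.888 TPM with PSENEN siRNA and 5.84 ± 0.752 TPM with mismatch siRNA (SD, n = 3 each). With assembled transcripts CREB3L2 lay higher and EIF2AK3 lower with PSENEN siRNA without overlap, where 14.5% of all genes lay lower and 7.81% higher.

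IRE1 activates XBP1 by cutting 26 bases out of its mRNA, which shifts the reading frame and gives the active factor. The 26 bases lie at chr22:28796122-28796147, inside exon 4 of ENST00000216037 (GRCh38, minus strand, sequence from the GENCODE 29 transcript). They are printed in capitals with 30 bases on each side, because the forms below differ by them.
XBP1: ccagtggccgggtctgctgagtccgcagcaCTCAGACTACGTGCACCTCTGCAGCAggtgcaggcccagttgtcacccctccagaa

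The form without these bases (ENST00000344347) had 2.95, 3.66 and 4.11 TPM with PSENEN siRNA, against 5.99, 5.36 and 5.29 TPM with mismatch siRNA. Transcripts that keep them had 31.5, 28.6 and 31.3 TPM with PSENEN siRNA, against 49.4, 47.8 and 45.4 TPM with mismatch siRNA. These include transcripts assembled at the XBP1 locus without a reference name. The forms can therefore sum to more than the XBP1 level above, which rests on reference transcripts. Both forms were lower without overlap, with means of 3.57 ± 0.584 and 30.5 ± 1.65 TPM with PSENEN siRNA and of 5.55 ± 0.384 and 47.6 ± 2.0 TPM with mismatch siRNA (SD, n = 3 each; two-sided exact permutation p = 0.1 for each, the smallest that 3 against 3 libraries allow, and 0.15 adjusted over the 3 XBP1 measures). The spliced share was 8.56%, 11.3% and 11.6% with PSENEN siRNA, against 10.8%, 10.1% and 10.4% with mismatch siRNA. The shares overlapped, at 10.5% ± 1.69 with PSENEN siRNA and 10.4% ± 0.368 with mismatch siRNA (SD, n = 3 each; two-sided exact permutation p = 1, and 1 adjusted). These shares rest on how StringTie divided reads among transcripts, and how the aligner treated a gap of 26 bases is not given in the sources used here.

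**Figure D3:**
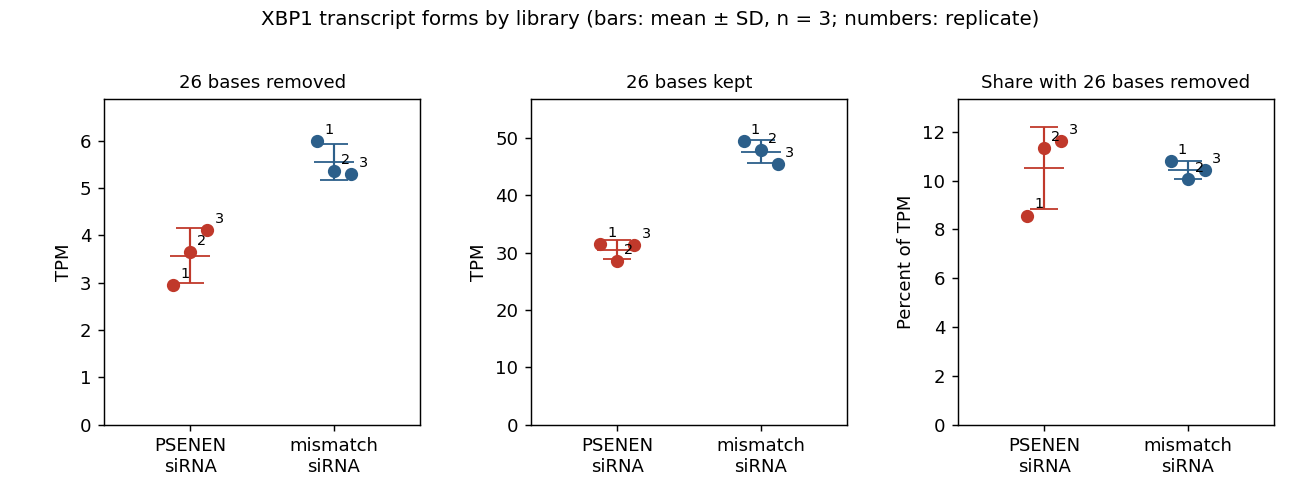
XBP1 transcripts without the 26 bases and with them (TPM), and the share without them (percent of both), in each PSENEN siRNA library (red, left) and mismatch siRNA library (blue, right), with mean and SD bars over 3 libraries and replicate numbers beside the points. Transcripts assembled without a reference name are included. Both forms are lower with PSENEN siRNA, while the shares overlap at about 10.5% with PSENEN siRNA and 10.4% with mismatch siRNA.

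Of the 11 tested members of the ATF4 pathway 3 lay lower with PSENEN siRNA without overlap (ATF4, TRIB3 and CHAC1), 1 lay higher (DDIT4) and 7 overlapped, where 13.7% of all genes lay lower and 8.21% higher. The median change was -0.21. With assembled transcripts ATF3 also lay lower without overlap. DDIT4 (ENSG00000168209, chromosome 10, 72273920 to 72276036, plus strand) encodes REDD1, an inhibitor of mTORC1 that several stresses induce. By its mean over the 6 libraries it was the most abundant member of the list, but with mismatch siRNA it averaged 121 TPM and ATF4 179 TPM, and with assembled transcripts ATF4 had the higher mean over the 6 libraries. It had 339, 159 and 324 TPM with PSENEN siRNA, against 89.1, 142 and 130.3 TPM with mismatch siRNA. PSENEN siRNA library 2 was close to the mismatch siRNA values, and the other 2 were more than 100 TPM above them. The change was 1.13 ± 0.34 (SE; limma adjusted p = 0.258, from 0.176 to 0.463 over the alternatives). Because 38.3% of DDIT4 words are shared with its antisense gene DDIT4-AS1 and the strandedness of the libraries is not given, reads of the pair cannot be told apart.

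ATF4 itself, the factor for which the list is named and which is controlled mainly in translation, had 148, 145 and 142 TPM with PSENEN siRNA, against 199, 176 and 162 TPM with mismatch siRNA. The groups did not overlap, with a change of -0.30 ± 0.10 (SE; limma adjusted p = 0.310), and 29.7% of its words are shared with other genes, most with the pseudogene ATF4P4. TRIB3, a pseudokinase induced by ATF4 and CHOP, averaged 20.9 ± 1.33 TPM with PSENEN siRNA and 27.7 ± 4.02 TPM with mismatch siRNA (SD, n = 3 each). CHAC1, which degrades glutathione, was low and variable, at 0.228, 0.536 and 2.23 TPM with PSENEN siRNA and 5.24, 3.04 and 2.46 TPM with mismatch siRNA. The nearest values of its groups were 2.23 and 2.46 TPM, so the absence of overlap rests on a narrow gap. Its change of -1.28 ± 0.42 had an adjusted p of 0.2997 by limma.

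The remaining factors of the stress response overlapped on the summed reference transcripts. ATF3, a factor induced by ATF4, averaged 1.25 ± 1.03 TPM with PSENEN siRNA and 2.38 ± 0.617 TPM with mismatch siRNA. DDIT3, which encodes the pro-apoptotic factor CHOP, averaged 6.88 ± 2.42 TPM with PSENEN siRNA and 7.90 ± 0.884 TPM with mismatch siRNA (SD, n = 3 each), and 28.9% of its words are shared with other genes, most with the overlapping gene MARS. PPP1R15A (GADD34), which restores translation, averaged 15.8 ± 1.83 TPM with PSENEN siRNA and 16.1 ± 1.57 TPM with mismatch siRNA. SESN2, an inhibitor of mTORC1 that senses leucine, averaged 3.77 ± 1.98 TPM with PSENEN siRNA and 4.02 ± 1.04 TPM with mismatch siRNA.

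The amino acid synthesis genes of the list overlapped too. ASNS (asparagine synthetase) averaged 19.4 ± 4.27 TPM with PSENEN siRNA and 21.1 ± 6.98 TPM with mismatch siRNA, and 42.7% of its words are shared with other genes. PSAT1, of serine synthesis, averaged 77.8 ± 12.2 TPM with PSENEN siRNA and 100.4 ± 22.5 TPM with mismatch siRNA (SD, n = 3 each). PHGDH, the first enzyme of that pathway, had 35.7, 49.6 and 37.6 TPM with PSENEN siRNA, against 97.3, 20.6 and 35.6 TPM with mismatch siRNA. Mismatch siRNA library 1 was far above the rest on these summed reference transcripts. The PHGDH transcript ENST00000369409 had 80.5 TPM there and 16.6 TPM in PSENEN siRNA library 2, and no value in the other 4 libraries, where it was counted as 0. With assembled transcripts PHGDH had 119, 69.2 and 127 TPM with PSENEN siRNA, against 106, 144 and 122 TPM with mismatch siRNA. Mismatch siRNA library 1 was then the lowest of its group.

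The chaperones and the ATF4 pathway were then set side by side within each library. The chaperone list mean was 5.99 ± 0.06 with PSENEN siRNA and 6.28 ± 0.09 with mismatch siRNA, and the ATF4 list mean was 4.25 ± 0.11 with PSENEN siRNA and 4.47 ± 0.22 with mismatch siRNA (mean log2(TPM + 1), SD, n = 3 each). The ATF4 mean minus the chaperone mean was -1.70, -1.84 and -1.69 with PSENEN siRNA, against -1.57, -1.97 and -1.90 with mismatch siRNA. These distances overlapped, so the lists were not set apart by their means beyond the spread between libraries. By count, 11 of 15 chaperones and 3 of 11 ATF4 pathway members lay lower without overlap, against 13.7% of all genes. Among members with a mean of at least 10 TPM the counts were 10 of 14 chaperones and 2 of 7 ATF4 pathway members, against 16.7% of such genes. With FPKM the counts were 8 chaperones and 2 ATF4 pathway members. CHAC1, which lay lower without overlap in TPM, and ATF3 did not pass the filter in FPKM and were not tested there. The share of all genes without overlap is not given for FPKM. The difference between the lists was not tested. The summed level of the ATF4 list ran the other way from its mean and median, at 607 ± 103 TPM with PSENEN siRNA and 534 ± 66.9 TPM with mismatch siRNA. Without DDIT4 the sums were 333 ± 13.9 TPM with PSENEN siRNA and 413 ± 92.0 TPM with mismatch siRNA (SD, n = 3 each).

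**Figure D4:**
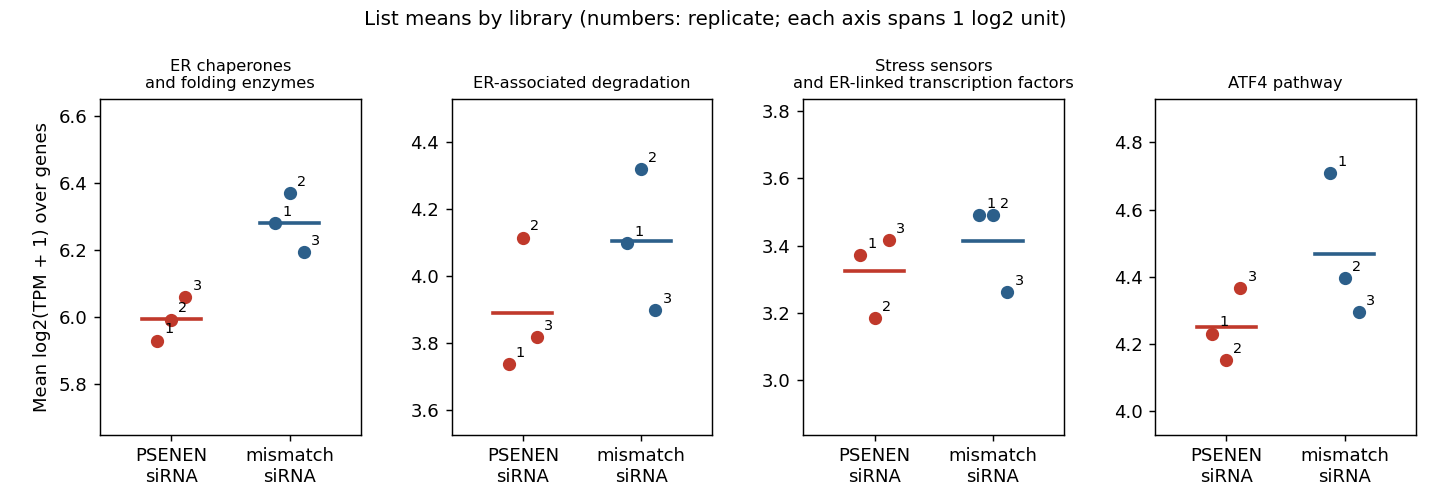
Mean log2(TPM + 1) over the tested genes of each list in each library, PSENEN siRNA left and mismatch siRNA right, with bars for group means over 3 libraries and replicate numbers beside the points; each axis spans 1 log2 unit and does not start at 0. Of the 4 lists plotted, the chaperone list has groups that do not overlap, at 5.93 to 6.06 with PSENEN siRNA and 6.19 to 6.37 with mismatch siRNA.

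Other genes of the same pathways were taken from lists that do not hold the members, to be read against the 13.7% of all genes that lay lower without overlap and the 8.21% that lay higher. Of 25 tested genes for other ER folding, import and degradation steps, 8 lay lower with PSENEN siRNA without overlap, 1 higher and none passed the test, with 6 lower and 0 higher at an unadjusted p under 0.05 and a median change of -0.19. The mean log2(TPM + 1) of this list was also apart, at 4.33 to 4.38 with PSENEN siRNA and 4.45 to 4.57 with mismatch siRNA. SEC63, another J-domain protein that works with BiP and chosen after its values were seen, overlapped, with a change of -0.06. Of 23 tested genes of the integrated stress response other than the members, 5 lay lower, none higher and none passed the test, with 4 lower and 0 higher at an unadjusted p under 0.05 and a median change of -0.04, the same as over all genes. DNAJC10 and SEC61A1, from the ER folding list, and SLC7A1, from the integrated stress response list, were chosen after their values were seen. DNAJC10 (ERdj5), a disulfide reductase of the ER, had 4.17, 5.29 and 5.35 TPM with PSENEN siRNA, against 9.92, 8.81 and 10.5 TPM with mismatch siRNA (limma adjusted p = 0.0951). SEC61A1, the channel through which proteins enter the ER, had 85.1, 87.9 and 96.1 TPM with PSENEN siRNA, against 136, 123 and 118 TPM with mismatch siRNA (limma adjusted p = 0.125). The groups of both genes were clearly apart. SLC7A1, an arginine and lysine transporter controlled by ATF4, had 41.7, 38.3 and 30.1 TPM with PSENEN siRNA, against 57.9, 59.4 and 66.0 TPM with mismatch siRNA (limma adjusted p = 0.122).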

How the data were processed

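The values the authors deposited are StringTie assemblies of the 6 libraries, 1 per library, in which each transcript carries TPM, FPKM and coverage, per the file headers and fields. No source used here gives the aligner, the StringTie version, the annotation or the strandedness. The submitters' processing notes name Bowtie 0.12.2 and mouse builds, which do not match these human files. Of 92476 reference transcripts, 90779 had the position they have in GENCODE 29 on GRCh38. TPM was summed per gene over lines that name the gene. An intensity trend was used in limma 3.58.1 (R 4.3.3), fitted to log2(TPM + 1) of the 15647 genes that reached 1 TPM in 3 or more libraries, with 4 residual degrees of freedom and Benjamini-Hochberg adjustment over all genes. The fit was tested on simulated data, with changes larger than most of those of the members. That does not show whether the fit could call changes of the size seen here. Shared sequence is the percent of the 31-base words of a gene's GENCODE 29 transcripts that also occur in another gene. Library numbers did not pair. The mean of its group was subtracted from each log2 value, gene by gene. The remaining deviations of same-numbered libraries had correlations of -0.0489, 6.51e-05 and -0.0142. Per-library values are given for up to 6 members with the lowest p in each direction among those without overlap, for the most abundant member of each list, and for further members chosen after their values were seen. The members, lists and tests were chosen with earlier results of these data known. Alternatives were other pseudocounts, filters, scalings, FPKM, no trend, a replicate block, assembled transcripts and leaving out each library.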

Additional observations from a re-analysis of the deposited data

How the results depend on the processing

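No member passed the threshold under any of the alternatives, and the lowest adjusted p of a member ranged from 0.0573 with assembled transcripts to 0.369 with a replicate block. Over all genes, the 64 calls became 28 with a pseudocount of 0.1 and 1 with the replicate block, and 7 to 16 with any 1 library left out; the cause was not tested, beyond fewer samples in the last case. PSENEN lost its call in the fits with the block (adjusted p = 0.306), with a pseudocount of 0.1 (0.0542), with no filter (0.0725) and with a minimum of 5 TPM (0.0544). The median change of the chaperones was -0.32 with FPKM and -0.43 to -0.32 with 1 library left out. That of the ATF4 list was -0.041 with FPKM and -0.31 to -0.18 with 1 library left out. The FPKM fit tested 33 members, without ATF3 and CHAC1 of the ATF4 list, which did not pass its filter. Its median change over all genes was 0.021. Chaperones lower without overlap numbered 8 with FPKM, 9 with median-of-ratios scaling and 11 to 13 with 1 library left out. All members without overlap numbered 13 with FPKM and 17 to 22 with 1 library left out. The share of all genes without overlap is not given for these settings. A group with 1 library fewer lies apart from the other more easily, so the counts with 1 library left out cannot be read as a gain. The sign turned for 7 members near 0, all of them uncalled. With assembled transcripts CALR was at -0.077, EDEM1 at 0.037 and PPP1R15A at 0.025. With FPKM EDEM1 was at 0.023, PPP1R15A at 0.033 and PHGDH at 0.022. With quantile normalization EDEM1 was at 0.0046, PPP1R15A at 0.021 and PHGDH at 0.0019, and with median-of-ratios scaling PPP1R15A was at 0.0071 and PHGDH at 0.0026. With 1 library left out CALR ranged from -0.12 to 0.10, SYVN1 from -0.017 to 0.31, EDEM1 from -0.12 to 0.045, ASNS from -0.30 to 0.14, SESN2 from -0.45 to 0.048, PPP1R15A from -0.11 to 0.060 and PHGDH from -0.53 to 0.56. Leaving out 1 library moved the change by over 1.5 times for 23 of 35 members, of which 8 were among the 15 chaperones, 4 among the 4 degradation genes, 4 among the 5 sensors and factors and 7 among the 11 ATF4 pathway members. The remaining 526 values of members kept their direction. Without counts, the limit that depth sets on single values is unknown.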
